A study of Homo sapiens with 6 samples.

Results

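The 9 genes described here encode elafin (PI3), secretory leukocyte protease inhibitor (SLPI), 5 further proteins with a whey acidic protein (WAP) domain (WFDC1, WFDC2, WFDC3, WFDC5 and WFDC12) and 2 Kunitz-type inhibitors (SPINT1 and SPINT2). They were taken by gene symbol from a table of 19899 genes, and all 9 symbols were found. The set was selected on BRG1 against Control values of these same samples, so the members' own values are given as a description, without a test. The RNA came from COV434, an established line of ovarian origin treated by the study as a model of SCCOHT, the hypercalcemic type of small cell ovarian carcinoma, which has lost BRG1. SMARCA4 encodes BRG1, the ATPase subunit with which SWI/SNF complexes remodel chromatin. Cells received the empty plasmid pCDNA3-neo (Control, n = 3) or the BRG1 plasmid PBJ5-BRG1 (BRG1, n = 3), each mixed with pBABE-puro. Both groups were put under puromycin at 2 to 3 µg/ml after 24 hours and were collected 3 days later. Each sample was therefore a pool of transiently transfected cells of 1 line, and fewer cells making a transcript cannot be told apart from less RNA per cell.

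WAP-domain proteins are small secreted proteins held together by a core of disulfide bonds, and several of them block serine proteases. Elafin inhibits neutrophil elastase and proteinase 3, and transglutaminases cross-link its N-terminal part to other proteins, for example in the cornified envelope of the epidermis. SLPI inhibits elastase and cathepsin G and is made by mucosal epithelia. WFDC2, also called HE4, is a serum marker of epithelial ovarian carcinoma. SPINT1 and SPINT2 are membrane-bound inhibitors of matriptase, hepsin and the activator of hepatocyte growth factor (HGF), and they are typical of epithelial cells.

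Values are normalised counts, meaning estimated counts divided by the size factor of the sample, unless a value per kilobase is named. The libraries held between 29699741 and 63613710 estimated counts, and BRG1 sample 3 was the shallowest. SMARCA4, whose values include plasmid transcripts, stood at 1439, 1676 and 1538 in Control samples 1 to 3 and at 108655, 79075 and 78589 in BRG1 samples 1 to 3. The groups did not overlap, for a log2 fold change of 5.84 (standard error, SE, 0.18). SMARCA2, the other ATPase gene and silent in SCCOHT, averaged 16.4 ± 10.9 without and 24.1 ± 15.9 with the BRG1 plasmid (SD, n = 3). FOXL2, a granulosa cell marker, had 1 count in all 6 libraries together. Of the other granulosa markers, AMH lay between 227 and 455 and INHA between 35.7 and 47.5, with overlapping groups. FSHR stayed at or below 2.49, and CYP19A1 is given below. Of the leukocyte markers, CD3E and MPO were at 0 or 1 count in every library, while PTPRC lay between 336 and 722 with overlapping groups.

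A group of 6 members lies in 1 cluster on chromosome 20 (GRCh38, GENCODE release 44). WFDC5 (45109452 to 45115174, minus strand) is at its left edge, followed by WFDC12 (45123425 to 45124465, minus), PI3 (45174902 to 45176544, plus), SLPI (45252239 to 45254564, minus) and WFDC2 (45469753 to 45481532, plus). WFDC3 (45747944 to 45791932, minus) closes it, and the cluster spans 682 kb. WFDC1 lies apart on chromosome 16 (84294846 to 84329844, plus), SPINT1 on chromosome 15 (40844018 to 40858207, plus) and SPINT2 on chromosome 19 (38244035 to 38292615, plus). All are protein-coding genes.

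Promoter sequences from RefSeq (GRCh38.p14) could be matched for 3 of the 9 members, SPINT1, WFDC2 and WFDC3. They are shown with that of SEMG1, the gene of a semen coagulum protein that starts between PI3 and SLPI, because the AP-1 factors named in the title of the study bind a short motif that can be looked for there. Each line holds 251 bases, the 250 before the start and the start base, with any motif found in capitals.
SPINT1 (chr15:40843798-40844048, plus strand): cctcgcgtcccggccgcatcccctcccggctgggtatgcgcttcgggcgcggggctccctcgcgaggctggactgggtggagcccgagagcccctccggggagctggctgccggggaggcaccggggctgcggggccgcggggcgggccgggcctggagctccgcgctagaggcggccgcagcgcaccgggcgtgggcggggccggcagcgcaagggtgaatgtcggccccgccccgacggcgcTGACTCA
WFDC2 (chr20:45469503-45469753, plus strand): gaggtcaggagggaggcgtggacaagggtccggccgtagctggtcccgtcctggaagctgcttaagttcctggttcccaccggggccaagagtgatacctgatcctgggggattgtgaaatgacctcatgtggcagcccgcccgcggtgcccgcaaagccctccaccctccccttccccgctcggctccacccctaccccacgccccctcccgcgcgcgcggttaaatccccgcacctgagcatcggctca
WFDC3 (chr20:45791883-45792133, minus strand): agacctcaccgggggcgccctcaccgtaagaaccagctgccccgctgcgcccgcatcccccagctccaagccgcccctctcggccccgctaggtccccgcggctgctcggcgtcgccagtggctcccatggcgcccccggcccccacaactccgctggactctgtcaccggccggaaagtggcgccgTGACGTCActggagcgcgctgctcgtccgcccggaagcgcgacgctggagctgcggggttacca
SEMG1 (chr20:45206783-45207033, plus strand): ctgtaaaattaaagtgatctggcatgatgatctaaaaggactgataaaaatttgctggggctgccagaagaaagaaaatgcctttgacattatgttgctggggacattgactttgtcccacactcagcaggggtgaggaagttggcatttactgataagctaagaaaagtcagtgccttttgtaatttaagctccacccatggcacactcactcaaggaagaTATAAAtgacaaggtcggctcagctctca
On both strands of windows reaching 50 bases past the start, 3 motifs were searched. These were the AP-1 motif TGANTCA, the cyclic AMP response element TGACGTCA and the TATA motif TATAAA. SPINT1 held the AP-1 motif beginning at position -6, counted back from the start, the WFDC3 window printed held the cyclic AMP response element at -63, SEMG1 held TATAAA at -28, and WFDC2 held none of the 3. Of all 35116 windows, 7.71% held the AP-1 motif, 1.85% the cyclic AMP response element and 11.5% TATAAA. Positions count from the RefSeq start, which for SPINT1 (40844048) and WFDC3 (45791883) lies inside the GENCODE gene given above. The AP-1 motif of SPINT1 therefore lies past its GENCODE start. A match is a description of the letters and not a bound site.

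PI3 was higher in every BRG1 sample, and moved from a low to a high level of expression. Control samples 1 to 3 had 41.4, 32.8 and 35.6, and BRG1 samples 1 to 3 had 9173, 5953 and 2391. The lowest BRG1 sample was far above the highest Control sample, but the BRG1 samples differed from each other much more than the Control samples did. The means were 36.6 ± 4.38 in Control and 5839 ± 3393 in BRG1 (SD, n = 3), a ratio of means of 159. The log2 fold change was 7.32 (SE 0.43). Between samples of the same number the fold was 221, 181 and 67.2. BRG1 sample 3, with the least PI3, was also the shallowest library, and its SMARCA4 value was next to that of BRG1 sample 2. The part of depth or plasmid dose in this spread was not tested. Without BRG1 sample 3 the log2 fold change of PI3 was 7.70, and without BRG1 sample 1 it was 6.84. PI3 ranked above 32.3% of the 18096 detected genes in Control and above 91.6% of them in BRG1 samples.

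SLPI went from near the detection limit to a moderate level. Control samples 1 to 3 had 7.31, 2.35 and 3.79, which together rest on 13 counts, and BRG1 samples had 390, 343 and 321. In contrast to PI3, the BRG1 samples were close to each other. The means were 4.48 ± 2.55 in Control and 351 ± 35.4 in BRG1 (SD, n = 3), with a ratio of 78.4 and a log2 fold change of 6.33 (SE 0.47). Within replicate numbers the fold was 53.4, 146 and 84.8, so that the largest SLPI fold fell in number 2 and the largest PI3 fold in number 1. SLPI passed from above 19.98% to above 43.7% of the detected genes. The ratio of PI3 to SLPI normalised counts was 5.67, 14.0 and 9.40 in the Control samples and 23.5, 17.4 and 7.45 in the BRG1 samples, and these ranges overlapped.

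SPINT2, the inhibitor of matriptase and of the HGF activator, was abundant in both groups. It had 6136, 7794 and 7313 normalised counts in Control samples 1 to 3 and 11830, 9834 and 11042 in BRG1 samples. The groups did not overlap, although the step was small beside those of PI3 and SLPI. The means were 7081 ± 853 and 10902 ± 1005 (SD, n = 3), with a ratio of 1.54 and a log2 fold change of 0.62 (SE 0.16). Other annotated genes on either strand cover 15.3% of the exonic bases of SPINT2, and in these unstranded libraries their reads cannot be separated with certainty. SPINT1, its relative, was nearly silent. The Control samples held 0, 2 and 0 counts and the BRG1 samples 0, 3 and 3. No fold is given, because no library exceeded the 3 counts that a count of 0 allows.

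**Figure D1:**
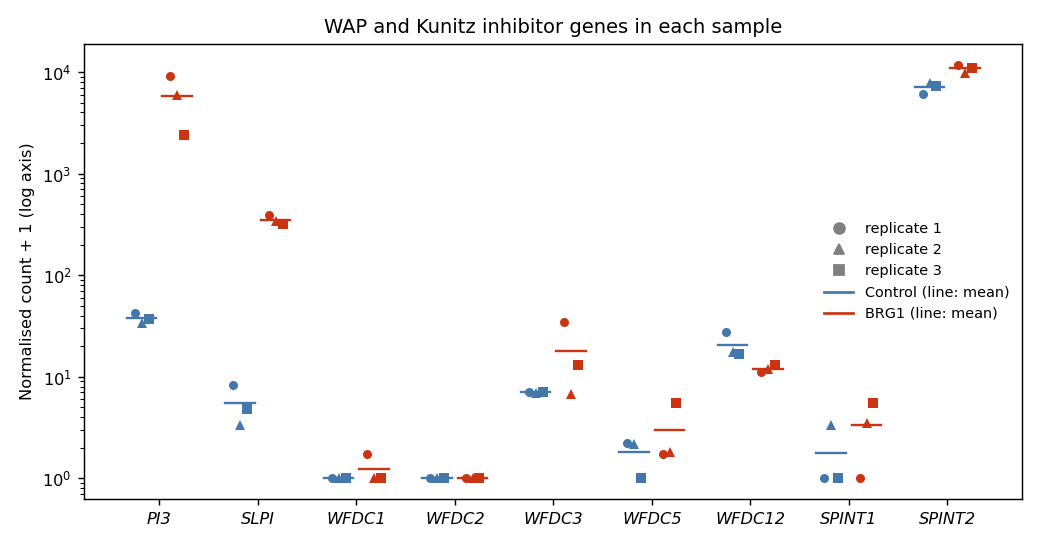
Normalised count plus 1 (log axis) of the 9 genes in each of the 3 Control (blue) and 3 BRG1 (red) samples, with symbols for the replicate number and lines for the group means. PI3 and SLPI are separated by more than 1 step of the log axis, SPINT2 by a ratio of means of 1.54, and WFDC2 is at 0 in all 6 samples.

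The remaining WAP-domain genes stayed at low counts. WFDC12 had 26.8, 16.4 and 15.9 normalised counts in Control samples and 10.2, 10.8 and 11.9 in BRG1 samples. It was the 1 member whose BRG1 samples all lay below the Control samples, with a log2 fold change of -0.85 and an SE of 0.62. WFDC3 had 6.09, 5.86 and 6.06 in Control and 33.4, 5.81 and 11.9 in BRG1 samples. Its groups overlapped, and its log2 fold change of 1.52 (SE 0.91) fell to 0.54 without BRG1 sample 1. WFDC5 had 1, 1 and 0 counts in Control and 1, 1 and 3 counts in BRG1 samples. WFDC1, which encodes a WAP protein of the prostate stroma, had a single count, in BRG1 sample 1. WFDC2 had 0 counts in all 6 libraries, which allows up to 3 counts per library or between 0.0472 and 0.101 CPM (counts scaled to the library total). This limit covers counting error only.

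On the scale of normalised counts per kilobase of the canonical transcript, the order of the levels changed between the groups. In Control samples SPINT2 came first with a mean level of 4195 per kilobase, followed at a distance by PI3 with 66.4, WFDC12 with 25.4, SLPI with 7.52 and WFDC3 with 6.19. SLPI and WFDC3 did not differ beyond the spread of SLPI in Control. In BRG1 samples PI3 had the highest mean level, 10597 per kilobase, before SPINT2 with 6459, SLPI with 590, WFDC3 with 17.6 and WFDC12 with 14.1. PI3 and SPINT2 did not separate there, since PI3 had 4340 per kilobase in BRG1 sample 3 and SPINT2 had 6541. WFDC3 and WFDC12 overlapped as well. WFDC5, SPINT1, WFDC1 and WFDC2 were below 2 per kilobase in both group means. For each normalised count of PI3 there were 148, 237 and 206 of SPINT2 in the Control samples, and 1.29, 1.65 and 4.62 in the BRG1 samples.

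A count was found for 8 members, and 5 had an adjusted p in the DESeq2 fit over all genes. PI3, SLPI and SPINT2 were called higher at an adjusted p under 0.05, where 11.0% of all 16002 tested genes were. The same 3 were called by edgeR, where the background was 9.57%, and by DESeq2 with the replicate number as a block, where it was 13.4%. None was called lower by DESeq2, edgeR or the block, against 1.84%, 1.02% and 6.61% of all genes, and none had an unadjusted p under 0.05 in that direction. In 3 members the BRG1 samples all lay above the Control samples, as in 15.4% of the 18096 detected genes, and in 1 they all lay below, as in 8.88%. Since the members were chosen on this contrast, nothing is read from these counts. The 8 log2 fold changes had a median of 1.43. Of these genes, WFDC1, WFDC5 and SPINT1 had at most 3 counts in any library. Over the 5 members with more than 3 counts in a library the median was 1.52, the value of WFDC3, whose groups overlapped. Nothing is read from these medians either.

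The cluster on chromosome 20 holds 27 genes of the table, 6 members and 21 neighbours, and many of the neighbours are further WAP or Kunitz genes known from the male genital tract. Of the neighbours 17 had a count and 12 were tested. DESeq2 called 5 higher and 0 lower, beside 11.0% and 1.84% of all tested genes, with 0 also at an unadjusted p under 0.05 in the lower direction and 0 by edgeR and limma-voom. Over the 13 neighbours with more than 3 counts in a library the median log2 fold change was 1.17, against -0.007 over all genes. Genes absent from 1 group were set at their bound in both. The 1.17 was the bound of a single gene of few counts, WFDC10B. WFDC10A, WFDC10B, WFDC11, WFDC13, SDC4 and SEMG2 passed the limit of 3 counts only through BRG1 samples. Nothing is read from this median.

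WFDC11, a WAP-domain gene, had 0 counts in all Control samples and 68.9, 76.4 and 59.7 normalised counts in BRG1 samples 1 to 3. This was at least 21.7-fold higher against a floor of 3 counts per Control library (DESeq2 adjusted p 5.0e-10, edgeR adjusted p 0.00101). SEMG1 had 11.0, 4.69 and 9.09 in Control and 41.3, 66.5 and 35.8 in BRG1 samples, with a log2 fold change of 2.54 (SE 0.59, DESeq2 adjusted p 2.2e-04, edgeR adjusted p 0.0105). Both held with the replicate block. SEMG1 was the called neighbour with the smallest fold change and is named for its place between PI3 and SLPI. The other 3 rest on few counts. WFDC10B had 0 counts in Control and 6.53, 5.81 and 8.96 in BRG1 samples, at least 2.26-fold higher (DESeq2 adjusted p 0.0328, 0.118 with the block). SDC4, which encodes the proteoglycan syndecan-4, had 0, 1.17 and 0 in Control and 22.5, 11.6 and 1.49 in BRG1 samples (DESeq2 adjusted p 0.0356, 0.0823 with the block). SEMG2, the paralog of SEMG1, had 0, 1.17 and 0 in Control and 11.6, 6.65 and 7.46 in BRG1 samples (DESeq2 adjusted p 0.0432, 0.0988 with the block). None of these 3 was tested by edgeR, which left them out for low counts, so that edgeR called 2 of the 7 neighbours it tested. The other tested neighbours were not called. SYS1, DBNDD2 and PIGT had log2 fold changes of -0.07, 0.03 and 0.16, and SYS1-DBNDD2 had 0.21. At low counts, TP53TG5 had -0.38, WFDC13 0.63 and EPPIN 1.73.

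**Figure D2:**
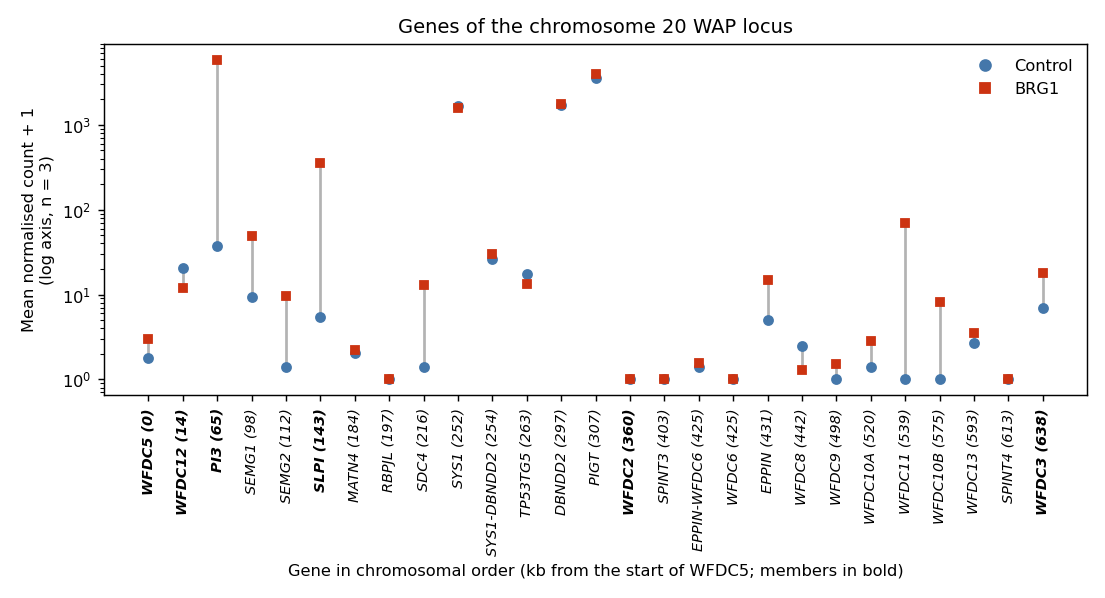
Mean normalised count plus 1 (log axis, n = 3) of the genes of the chromosome 20 cluster in Control (blue circles) and BRG1 (red squares) samples, in chromosomal order with the distance in kb from the start of WFDC5. PI3, SLPI and WFDC11 have the longest upward steps, and SYS1, DBNDD2 and PIGT between them have almost none.

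Related genes were then followed by role, in 7 lists of 68 genes in all, of which 57 had a count. DESeq2 called 16 higher and 2 lower of 43 tested, beside 11.0% and 1.84% of all genes, and edgeR called 13 higher and 1 lower of 31 tested. The median log2 fold change over the 47 genes with more than 3 counts in a library was 0.89, with genes absent from 1 group at their bound, against -0.007 over all genes. Computed in the same way, the median of each list stood at 1.17 for the other WAP-domain genes (7 genes), 0.28 for the Kunitz-domain genes (5), -0.36 for the Kazal-type inhibitors (4), 0.32 for the neutrophil and mast cell proteases (4), 1.00 for the matriptase and HGF axis (8), 2.20 for the partners of elafin and SLPI (10) and 2.73 for the inducing cytokines (9). The 1.17 was again the bound of WFDC10B. Several genes passed the limit of 3 counts only through BRG1 samples. Among the WAP-domain genes these were WFDC10A, WFDC10B, WFDC11 and WFDC13, and in the matriptase and HGF axis HPN. Among the partners they were IVL, TGM3 and TGM5, and among the cytokines IL1RN, IL22RA1 and IL36G. The lists were also chosen with earlier results of these data known, so nothing is read from these medians. Among the other 11 WAP-domain genes, WFDC11 and WFDC10B, described above, were the 2 called higher of 6 tested. None was called lower by DESeq2, edgeR or limma-voom or had an unadjusted p under 0.05 in that direction. Among 8 other Kunitz-domain genes DESeq2 called 1 higher and 1 lower of 5 tested. APP, the amyloid precursor, had 33183, 32779 and 33476 in Control and 73800, 59590 and 51038 in BRG1 samples (log2 fold change 0.89, SE 0.17, DESeq2 adjusted p 5.6e-06, edgeR 0.00423). TFPI, the inhibitor of the tissue factor pathway of coagulation, had 16815, 17961 and 19541 in Control and 8815, 13423 and 13605 in BRG1 samples. Its log2 fold change was -0.60 (SE 0.21) with a DESeq2 adjusted p of 0.0327, and edgeR gave an adjusted p of 0.0833. With the replicate block both called it lower (DESeq2 adjusted p 7.4e-06, edgeR 0.00961). With the replicate block APLP2, the relative of APP, was called higher as well by DESeq2 (log2 fold change 0.29, adjusted p 0.011 with the block and 0.0782 without it), but not by edgeR with the block (adjusted p 0.0552). None of the 10 Kazal-type inhibitor genes was called by DESeq2, edgeR or limma-voom, with 3 tested by DESeq2 and none at an unadjusted p under 0.05.

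The proteases that elafin and SLPI inhibit were low and were not called in either direction. Of 8 genes of neutrophil and mast cell proteases 5 had a count and 4 were tested, and none was called by DESeq2, edgeR or limma-voom or had an unadjusted p under 0.05. Since DESeq2 called 11.0% of all tested genes higher and 1.84% lower, none of 4 is near that share. ELANE, neutrophil elastase, lay between 3.65 and 41.8 normalised counts over the 6 samples and CTSG, cathepsin G, between 1.45 and 23.9, with overlapping groups.

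In the axis of matriptase and HGF activation, the proteases that SPINT1 and SPINT2 inhibit were at low counts, while the receptors MET and F2RL1 rose. ST14, which encodes matriptase, stayed at or below 5.30 normalised counts and HPN, hepsin, at or below 3.63. HGFAC, the HGF activator, had 14.6, 8.21 and 8.33 in Control and 27.6, 8.31 and 7.46 in BRG1 samples, with overlapping groups, and was not called. Of the 11 genes DESeq2 tested 7 and edgeR 5, and each called 2 higher and 1 lower. The shares of all tested genes were 11.0% higher and 1.84% lower with DESeq2, and 9.57% and 1.02% with edgeR. MET, the HGF receptor, had 39.0, 50.4 and 18.9 in Control and 1542, 851 and 291 in BRG1 samples (log2 fold change 4.64, SE 0.55, DESeq2 adjusted p 2.4e-15, edgeR 0.00329). F2RL1, a protease-activated receptor cleaved by trypsin-like proteases, had 34.1, 51.6 and 9.09 in Control and 1214, 1040 and 364 in BRG1 samples (log2 fold change 4.81, SE 0.57, DESeq2 adjusted p 2.4e-15, edgeR 0.00315). Both receptors were lowest in sample 3 of each group. HGF itself fell, from 66528, 57417 and 59678 to 35641, 43488 and 42362 (log2 fold change -0.60, SE 0.15, DESeq2 adjusted p 6.0e-04, edgeR 0.0144).

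Of the 10 partners of elafin and SLPI, 5 were called higher by both tools, with 9 tested in DESeq2 and 7 in edgeR. Beside this, DESeq2 called 11.0% of all tested genes higher and edgeR 9.57%. None was called lower by either or by limma-voom, and none had an unadjusted p under 0.05 in that direction. This is near the shares of all genes called lower, 1.84% with DESeq2 and 1.02% with edgeR. IVL, involucrin, a substrate of the cornified envelope, had 3.65, 3.52 and 1.51 in Control and 2159, 1241 and 476 in BRG1 samples (log2 fold change 8.88, SE 0.70, DESeq2 adjusted p 2.0e-34, edgeR 3.1e-04). Its Control values together rest on 8 counts. TGM2, a widely expressed transglutaminase, had 219, 118 and 96.2 in Control and 55184, 25701 and 11802 in BRG1 samples (log2 fold change 7.74, SE 0.71, DESeq2 adjusted p 4.3e-26, edgeR 4.0e-04). As with PI3, sample 1 was the highest and sample 3 the lowest of the BRG1 samples for both genes. TGM1, the transglutaminase of keratinocytes, rose from 55.2 ± 8.62 to 532 ± 289 (SD, n = 3, log2 fold change 3.27, DESeq2 adjusted p 1.4e-12, edgeR 0.00273). ANXA2, annexin A2, rose from 4970 ± 540 to 26016 ± 13237 (SD, n = 3, log2 fold change 2.39, DESeq2 adjusted p 2.1e-10, edgeR 0.00368). The fifth was PLSCR1, a phospholipid scramblase known to bind SLPI, with a log2 fold change of 1.91. GRN, the progranulin that SLPI shields from elastase, was abundant, between 8465 and 10438, and was not called.

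Of the cytokines that induce PI3 and SLPI in epithelia, and their receptors and antagonist, DESeq2 called 6 higher of 9 tested, and edgeR 4 of 6. Over all tested genes the shares called higher were 11.0% with DESeq2 and 9.57% with edgeR. None was called lower by DESeq2, edgeR or limma-voom, and none had an unadjusted p under 0.05 in that direction. Only 1.84% of all tested genes were called lower with DESeq2 and 1.02% with edgeR, so none lower of 9 is near that share. IL1B had 9.75, 4.69 and 1.51 in Control and 1288, 583 and 476 in BRG1 samples (log2 fold change 7.30, SE 0.59, DESeq2 adjusted p 8.1e-33, edgeR 4.0e-04). IL1A rose from 2.78 ± 2.46 to 181 ± 137 (SD, n = 3, log2 fold change 6.16, DESeq2 adjusted p 4.9e-12, edgeR 0.00393). IL1RN, which encodes the antagonist of the interleukin receptor that both use, had 2 counts in all Control libraries and 243, 145 and 58.2 in BRG1 samples (DESeq2 adjusted p 1.6e-09, edgeR 0.00139). IL36G, an epidermal cytokine, had 0 counts in Control and 26.1, 19.9 and 16.4 in BRG1 samples, at least 6.61-fold higher (DESeq2 adjusted p 3.6e-05, edgeR 0.00445). The other 2 were TNF and TNFRSF1A. TNF had a DESeq2 adjusted p of 0.0441 with overlapping groups and was not tested by edgeR, and TNFRSF1A had 0.0246 with DESeq2 and 0.0737 with edgeR. With the replicate block TNFRSF1A was called higher by both (DESeq2 adjusted p 3.8e-05, edgeR 0.00717).

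**Figure D3:**
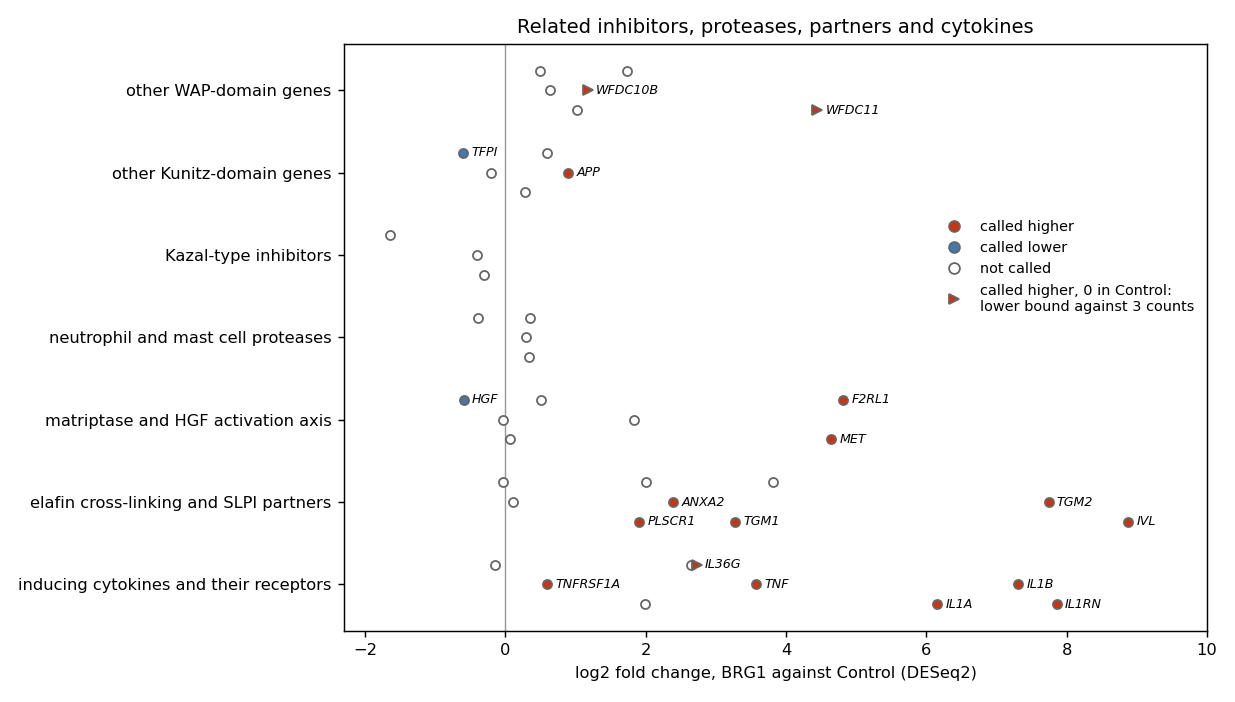
DESeq2 log2 fold change, BRG1 against Control, of the tested genes of the 7 related lists (1 point per gene, rows by list, filled where called). Triangles stand at the log2 of the lower bound for genes with 0 counts in Control, the 2 blue points (TFPI and HGF) lie below 0, and IVL lies farthest right at 8.88. The point for IL1RN rests on 2 counts in Control and that for IVL on 8.

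Markers of other cells were read in the same samples. Of the leukocyte markers 4 were tested, and LYZ, lysozyme, was the 1 called, from 2.44, 0 and 0.757 to 13.8, 20.8 and 22.4 (3 counts in all Control libraries, DESeq2 adjusted p 0.00261, edgeR 0.00938), while MPO was at 0. Of 7 ovarian surface and granulosa markers 5 were tested. AMH, INHA and WT1 were not called, and WT1 lay between 3592 and 9466 with overlapping groups. CYP19A1, aromatase, was called higher (23.3 ± 8.03 to 322 ± 115, SD, n = 3, log2 fold change 3.76, DESeq2 adjusted p 8.7e-20, edgeR 7.2e-04). PAX8, a factor of the tubal epithelium, was called higher by DESeq2 (log2 fold change 1.08, adjusted p 0.0194), and by edgeR with the replicate block (adjusted p 0.0476) but not without it (0.103). No marker of either list was called lower by DESeq2, edgeR or limma-voom or had an unadjusted p under 0.05 in that direction. For all tested genes the shares called higher and lower were 11.0% and 1.84% with DESeq2, and 9.57% and 1.02% with edgeR. The part of other cells in the values of PI3 and SLPI was not tested.

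Genes with a profile like that of PI3 were sought among 14219 genes with a mean of at least 10, by the root-mean-square difference of log2(normalised count + 1), centred on its mean, over the 6 samples. The nearest were SPARC (0.169) and COL4A1 (0.246), which encode proteins of the extracellular matrix and basement membrane, with NT5E (0.193), NID2 (0.226) and PDCD1LG2 (0.243) between them. SPARC had 156, 145 and 166 in Control and 38532, 20691 and 11696 in BRG1 samples, with the same order among the BRG1 samples as PI3. Among the nearest to SLPI were RTP4 (0.226), PLA2G5 (0.275), CCL5 (0.307) and KRT9 (0.341). RTP4 had 1.22, 0 and 0.757 in Control and 149, 134 and 131 in BRG1 samples. None of the genes named for PI3 was among those named for SLPI. SLPI was in position 131 from PI3, and PI3 in position 123 from SLPI, among these 14219 genes, with a difference of 0.753 between them. The profiles were centred but not scaled, so these differences include the size of the step that the members were chosen on. PDCD1LG2, with 0 in all Control samples, and KRT9, with 1.22, 0 and 0, also depend on the 1 added. These values describe 6 samples from 1 experiment that share libraries and depth.

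**Figure D4:**
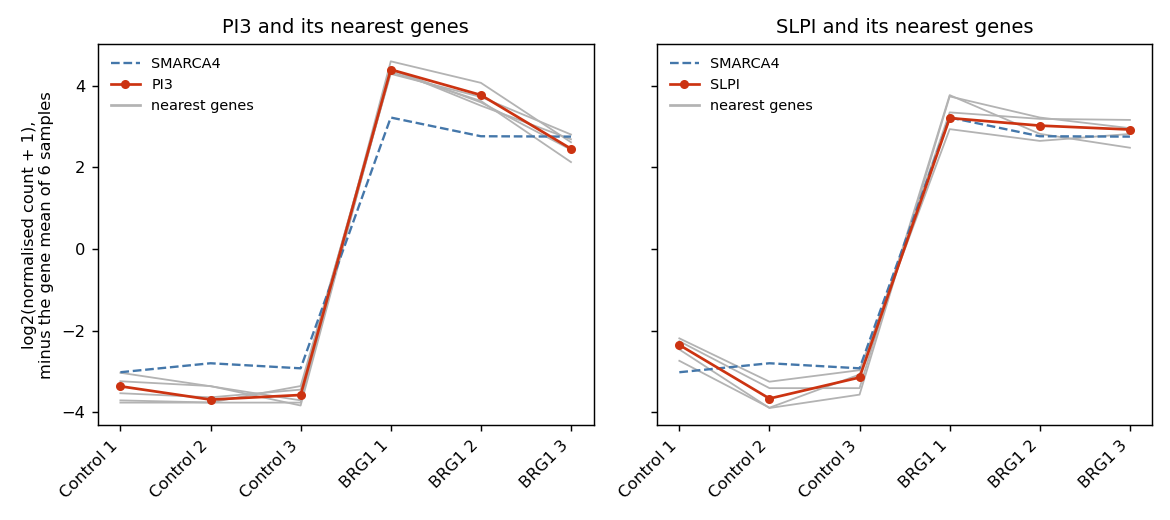
Log2(normalised count + 1) minus the gene's mean over the 6 samples, for PI3 (left) and SLPI (right) in red, the genes named as nearest to each in grey and SMARCA4 as a dashed blue line. PI3 and its neighbours spread over the 3 BRG1 samples, where PI3 had 9173, 5953 and 2391 normalised counts, while SLPI, with 390, 343 and 321, stays nearly level there.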

How the data were processed

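RNA-seq of 3 Control and 3 BRG1 samples of COV434 cells was used, made from poly(A) RNA without keeping strand. The authors aligned reads to the human genome (build hg38) with STAR 2.5.3a, quantified transcripts with Salmon 0.8.2 on GENCODE release 24, and used tximport to add transcripts up by gene. For each gene symbol the deposited value is an estimated count, scaled by transcript length and library size, in which a model divides reads between genes they fit equally well. FastQC 0.11.5 and DESeq2 1.22.2 are named in the submitters' processing notes and the study's methods.

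Here these values were rounded to whole numbers. All genes were fitted with DESeq2 1.42.0 in R 4.3.3 (Wald test, median-ratio size factors, no covariate), and a gene was called at a Benjamini-Hochberg adjusted p under 0.05. Genes to which DESeq2 gave no adjusted p were not filled in. The quasi-likelihood test of edgeR 4.0.16 and limma 3.58.1 (voom) were alternatives. In a test on simulated data the share of false calls exceeded the threshold with DESeq2 and not with edgeR, so the edgeR call is given beside it. The simulated data had fewer changed genes than were called here and no replicate effect. The share of false calls in the real data was therefore not measured. The replicates were described as biological, and nothing else says how the cultures were separated. Replicate numbers paired the samples: deviations from the group means correlated at 0.522, 0.524 and 0.614 within numbers 1 to 3, over 11686 genes (mean normalised count 100 or more), and from -0.523 to 0.0734 across numbers. The totals of 29699741 to 63613710 estimated counts set the counting error, and a count of 0 allows up to 3 counts per library. A fold against a group at 0 was computed against 3 counts per library and is a lower bound.

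Members and lists were chosen with earlier results of these data known. Named were all 9 members, SMARCA4, at most 4 called genes of each list and of the cluster neighbours by the size of the fold change, and the 5 nearest profiles, of which 1 gene, and 1 of the leukocyte markers, is not reported here. SEMG1, APLP2, PLSCR1, GRN, TNF, TNFRSF1A and the genes named as not called or as markers fell outside that rule and were added after their values were seen. Positions, transcript lengths and overlaps came from GENCODE release 44. Alternatives were other tests, size factors, a filter on low counts, a stricter threshold, the replicate block and leaving out each sample.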

Additional observations from a re-analysis of the deposited data

How the results depend on the processing

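PI3, SLPI and SPINT2 were called higher, and no other member was called, under every alternative run. No log2 fold change of these 3 or of WFDC12 changed sign. The members were chosen on this contrast, so this describes the fits and adds no support to the calls. WFDC1, WFDC3, WFDC5 and SPINT1 had no value in the fits that leave out low counts (edgeR, limma-voom, the count filter and the block in edgeR), and WFDC1 had none without BRG1 sample 1. In the fits that gave these genes a value the sign did not change, but all except WFDC3 had at most 3 counts in any library and their fold changes turn on single counts. WFDC2, with no count, had no fold change. Over the alternatives the log2 fold change ranged from 6.84 to 7.70 for PI3, from 6.08 to 6.78 for SLPI and from 0.53 to 0.69 for SPINT2. The number of all genes called lower, 294 with DESeq2, was 146 with edgeR, 169 with limma-voom, 163 with size factors from total counts, 130 at the stricter threshold of 0.01, 1035 with the replicate block, 809 with the block in edgeR, and from 116 (without BRG1 sample 2) to 596 (without BRG1 sample 3) when 1 sample was left out. Related genes called lower, 2 with DESeq2, were 1 with edgeR, limma-voom, total-count size factors and the stricter threshold, and from 1 to 3 with 1 sample left out. Neighbours in the chromosome 20 cluster called higher, 5 with DESeq2, were 2 with edgeR, limma-voom, the filter of at least 10 counts in 3 samples, the stricter threshold and the replicate block in DESeq2 or edgeR, and from 2 to 4 with 1 sample left out. Apart from these and the calls given beside their genes, the block changed no call named in the report, in DESeq2 or in edgeR. Causes were not tested. With 3 samples a group, poly(A) libraries without strand and 13 counts of SLPI in Control, small folds and folds of rare transcripts have wide errors.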

Other observations

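Windows of the same length, 682 kb, on either side of the chromosome 20 cluster were read after the values inside it had been seen. The window before it held 13 genes of the table and the window after it 20. DESeq2 called 0 of the 10 tested genes before the cluster and 0 of the 20 after it, with 1 gene in each at an unadjusted p under 0.05, and edgeR and limma-voom called 0 as well. With the replicate block in DESeq2 1 gene was called higher and 1 lower after the cluster, ZSWIM3 (log2 fold change 1.22 without the block, DESeq2 adjusted p 0.0401 with it) and UBE2C, a gene of the cell cycle (-0.36 and 0.0417). With the block in edgeR ZSWIM3 was called (adjusted p 0.0280) and UBE2C was not (0.0630). The gene nearest to the threshold before the cluster was KCNK15, a potassium channel gene, with 0, 4.69 and 4.54 normalised counts in Control and 18.9, 14.95 and 14.9 in BRG1 samples (DESeq2 adjusted p 0.0930). MMP9, the gelatinase gene in the window after it, had overlapping groups, between 2.27 and 10.2 normalised counts.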
